A study of Mus musculus with 32 samples.

Results

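A pair of macrophage lines that differ in their receptor for colony stimulating factor 1 (CSF-1) were compared while growing in that factor: the Y721F line, arrays I and II, and the WT line, arrays I and II. These 4 arrays were chosen by their labels out of 32 in the whole study. Y721F cells carry a CSF-1 receptor that lacks the tyrosine after which the line is named, and WT cells carry a receptor that has it. Both lines, and the 2 others of the study, have the same M-/- background, and the medium was α-MEM with calf serum of newborn origin. The grown cells had human recombinant CSF-1 at 120 ng/mL all the time. Further arrays hold the same 2 lines starved of CSF-1 and a second pair of grown lines, 3AB, which lacks the tyrosine, and 3ABY721, which has it. The receptors of this second pair may differ from those of the first in more than that tyrosine. Each group has 2 arrays, which the study calls biological replicates, and their number limits the precision. Every p-value below rests on the spread between such arrays, pooled over all groups in the fit and not taken from the compared groups alone. Each receptor comes in a line of its own, and the labels do not say whether a line is 1 clone or a pool. The receptor and the line therefore cannot be told apart in this comparison.

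CSF-1 is the main survival and growth factor of macrophages. Its receptor is a tyrosine kinase that, once bound, phosphorylates tyrosines in its own intracellular part, and each phosphotyrosine recruits its own set of signalling proteins. When phosphorylated, the tyrosine missing from Y721F is the docking site for phosphatidylinositol 3-kinase (PI3K), which acts through AKT on growth, survival and movement of the cell. Macrophages are also the sentinels of tissue: they carry Toll-like, Fc and lectin receptors, clear dying cells, release chemokines and keep a basal level of interferon-response genes.

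Values are log2 signals of 1 probe set per gene on Affymetrix Mouse Gene 1.0 ST arrays, over 19938 genes, and a difference of 1 is a doubling of signal. Array medians over all probe sets were 6.05 and 6.09 in Y721F and 6.05 and 6.02 in WT. The 2 arrays of a group correlated across genes with r = 0.987 in Y721F and 0.987 in WT, against 0.996 in 3AB and 0.995 in 3ABY721, so the lines compared here had the wider spread between replicates. A gene is called where limma, fitted to the 16 arrays of starved and grown cells, gave a Benjamini-Hochberg adjusted p under 0.05 and a fold above 1.5. "Rose", "fell", "higher" and "lower" are used of single genes in that sense only, and SE is the standard error of a difference. The fit pools the spread of a gene over all groups, tighter ones included. Across genes the replicate difference had a standard deviation of 0.36 in grown WT and 0.35 in grown Y721F. The next widest group, starved WT, had 0.30. For genes that vary more in the grown Y721F and WT arrays, SE and p-values are therefore likely too small.

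More genes were lower than higher in the Y721F line against the WT line, and the lower ones include members of the interferon response, Schlafen, MS4A and chemokine lists. Of 19938 genes, 1572 were called, which is 7.88% of all. Of these, 587 (2.94% of all genes) were higher and 985 (4.94%) lower in Y721F. Those shares are the background for each count of list members below. Differences beyond 2 log2 units were seen in 50 higher and 97 lower genes, and beyond 3 units in 11 higher and 25 lower genes. The 2 Y721F arrays lay on one side of both WT arrays in 587 of the higher and 983 of the lower genes, and in 47.5% of all genes, called or not. After quantile normalization of the arrays the calls were 707 higher and 767 lower, so the share of higher genes was 48.0% in place of 37.3%. The count was 2449 without array Y721F I, 862 without Y721F II, 924 without WT I and 2269 without WT II. Fitted to the 4 arrays alone, limma called 210 genes, 52 higher and 158 lower.

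The largest fall was that of Cybb, which encodes the membrane subunit of the phagocyte NADPH oxidase, the enzyme of the oxidative burst. Its log2 signal was 4.99 and 5.05 in Y721F, against 10.58 and 11.20 in WT, a difference of -5.87 (SE 0.34, adjusted p = 8.57e-08, limma). Both Y721F arrays lie below the 25th percentile of genes on their array (5.20 and 5.25), so the 58.5-fold difference is best read as the least it could be. The neutrophil collagenase gene Mmp8 read 5.0 and 6.41 in Y721F and 11.60 and 11.25 in WT (-5.72, SE 0.47). Fcgr1, the high-affinity receptor for IgG, read 5.99 and 6.12 in Y721F and 11.61 and 10.81 in WT (-5.16, SE 0.21). For these 3 genes the groups are far apart, and no Y721F array reaches either WT array.

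**Figure D1:**
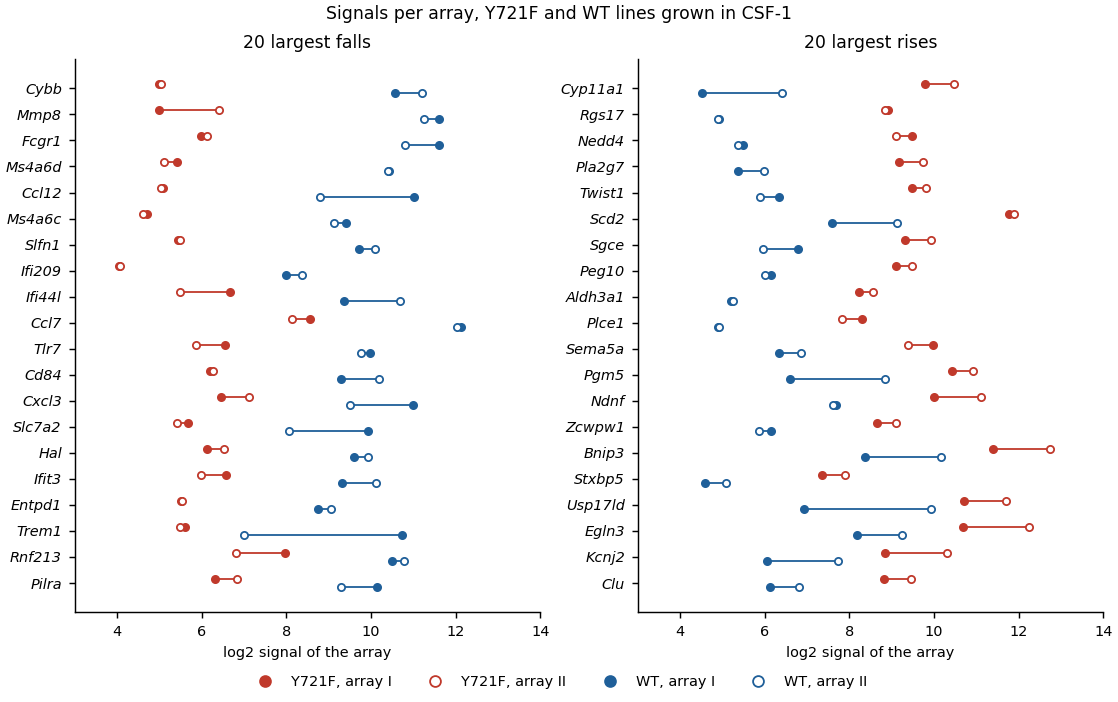
Log2 signal (x axis) of the 20 largest falls (left) and the 20 largest rises (right) among called genes whose arrays do not overlap; each row is a gene, Y721F in red above WT in blue, filled points array I and open points array II, with a line joining the replicates. Most falls end near a signal of 5 to 7 in Y721F, and the WT arrays of Trem1 (10.73 and 7.01) and Ccl12 (11.01 and 8.80) lie far apart.

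Genes of the type I interferon response held the most called members of the 48 lists. Cells switch these genes on when interferon binds its receptor, and many of the products block viruses. Of 30 measured members, 20 fell (66.7%) and 0 rose, beside 4.94% and 2.94% of all genes. The median difference was -0.96 against 0.05 over all genes. The mean signal of the list was 8.32 and 8.24 on the Y721F arrays, against 9.43 and 10.11 on the WT arrays. Both WT arrays lie above Y721F, and the 2 WT arrays differ more from each other than the 2 Y721F arrays do. The count of fallen members ran from 15 to 24 when 1 array was left out, and was 13 with the 4 arrays alone.

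Ifi44l, an interferon-induced gene, read 6.67 and 5.48 in Y721F and 9.36 and 10.69 in WT (-3.95, SE 0.49, adjusted p = 0.000113). Ifit3, one of the IFIT proteins that act against viral RNA, read 6.57 and 5.99 in Y721F and 9.31 and 10.12 in WT (-3.44, SE 0.30). Oasl2, of the oligoadenylate synthetase family, read 7.80 and 7.85 in Y721F and 10.21 and 11.13 in WT (-2.85, SE 0.22). In each of these genes both Y721F arrays are below both WT arrays by more than the replicates differ. Mx1, an antiviral GTPase, fell by 2.56 (SE 0.27), and Gbp3, a guanylate-binding protein of host defence, by 2.49 (SE 0.28). Ifi209, of the interferon-inducible p200 family of DNA sensors, stood outside the list and fell by 4.12 (SE 0.26). Ifitm3, a membrane protein that blocks virus entry, read 4.29 and 4.92 in Y721F and 6.02 and 8.96 in WT. Its call (-2.88, adjusted p = 0.0315) was lost without Y721F I, Y721F II or WT II (adjusted p = 0.108, 0.0935 and 0.229) and with all 32 arrays in the fit (0.0565).

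The receptor and the signalling chain of this response were looked at after the values were seen. Ifnar1, 1 chain of the interferon receptor, fell by 1.01 (SE 0.13, adjusted p = 0.000157), with 9.68 and 9.64 in Y721F and 10.60 and 10.75 in WT. Ifnar2, the other chain, measured -0.51 (SE 0.14, adjusted p = 0.0342) with a fold under 1.5, and was called without Y721F II (adjusted p = 0.0163). The kinase gene Jak1 measured -0.50 (SE 0.13) and Irf9 -0.34 (SE 0.12), both uncalled. Stat2 read 9.08 and 8.91 in Y721F and 9.29 and 10.31 in WT, and its difference of -0.81 (adjusted p = 0.0668) was called without WT I (0.00338) and with all 32 arrays (0.0486). The limma p-values of these genes are adjusted over all 19938 genes.

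Promoter sequences of the interferon list were searched for the element through which interferon is known to act. The interferon-stimulated response element was searched as GAAANNGAAA, on both strands, in the 250 bases before the start of 15614 measured genes with a RefSeq promoter (build GRCm38.p6). It stood in 3.4% of all promoters, in 5.17% of those of genes called lower and in 2.96% of those called higher. Of the interferon list, 9 of 22 promoters held it and, among the members called lower, 5 of 15. These 5 are printed 5′ to 3′ on the strand of the gene, with each match in capitals.
Ifit3, chr19:34583328-34583427, plus strand: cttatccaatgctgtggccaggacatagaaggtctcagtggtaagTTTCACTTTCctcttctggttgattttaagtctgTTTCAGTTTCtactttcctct
Gbp3, chr3:142559954-142560043, plus strand: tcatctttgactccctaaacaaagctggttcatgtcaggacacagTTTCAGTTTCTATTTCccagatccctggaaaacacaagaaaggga
Ifit1, chr19:34640740-34640839, plus strand: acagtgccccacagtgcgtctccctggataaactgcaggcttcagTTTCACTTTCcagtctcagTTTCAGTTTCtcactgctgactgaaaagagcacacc
Rsad2, chr12:26456518-26456617, minus strand: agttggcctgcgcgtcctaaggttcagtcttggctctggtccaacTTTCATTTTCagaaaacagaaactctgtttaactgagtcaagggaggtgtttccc
Trim30a, chr7:104465194-104465274, minus strand: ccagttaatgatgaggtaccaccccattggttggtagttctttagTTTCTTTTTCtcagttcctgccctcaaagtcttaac
Ifit3 and Ifit1 hold 2 separate matches each, Gbp3 holds 2 that overlap, and Rsad2 and Trim30a hold 1 each.

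The response element lay with its TTTC strand forward in all 5 promoters shown. Ifit1, whose protein binds viral RNA ends, fell by 2.43 in Y721F, Rsad2, the antiviral enzyme viperin, by 2.26, and Trim30a by 1.83. A further pair of motifs were searched the same way, and all 3 searches were chosen with the values of these arrays known. TACGTG, the core read by hypoxia-inducible factor, stood in 3.28% of all promoters, 2.07% of those of lower genes and 4.65% of those of higher genes. GAGGAAGT, a form of the site of the macrophage factor PU.1, stood in 2.59%, 5.04% and 2.33% of the same promoters. A match is only a run of letters, and binding was not measured here.

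Schlafen genes, which lie side by side on chromosome 11 and include several interferon-induced members, were called lower in most members. Of 9 measured, 6 fell (66.7%, beside 4.94% of all genes) and 0 rose, with a median of -0.90. Slfn1, a regulator of lymphocyte growth in the mouse, read 5.44 and 5.50 in Y721F and 9.72 and 10.10 in WT (-4.44, SE 0.26, adjusted p = 8.57e-08). Slfn4, a myeloid member, read 9.29 and 9.52 in Y721F and 11.57 and 11.75 in WT (-2.25, SE 0.21), and Slfn8 fell by 2.19 (SE 0.22). Slfn3 and Slfn9 fell by 0.93 and 0.90 (SE 0.16 each). Slfn2 fell by 0.66 (SE 0.14) and was not called without WT II, where its difference was -0.54 and its fold under 1.5. The other 3 family members ran from -0.33 (Slfn10-ps) to 0.51 (Slfn5) and were not called.

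Some fallen genes lay next to each other, and neighbours were looked at after the calls were seen. There were 19 runs of at least 3 adjacent measured genes called lower and 0 runs of genes called higher. Slfn2, Slfn1, Slfn4 and Slfn3 form 1 of them. Ifit2, Ifit3 and Ifit3b form another on chromosome 19, with differences from -3.44 to -1.85. Gbp8, Gbp9 and Gbp4 stand together on chromosome 5 (-2.36 to -0.90) and Phf11a, Phf11d, Phf11c and Setdb2 on chromosome 14 (-3.12 to -1.36). Trem1, Trem3 and Treml4, receptors that amplify or tune inflammation, stand together on chromosome 17 (-3.33 to -1.08), and the call of Trem1 was lost without Y721F II (adjusted p = 0.0683). Neighbouring family members can share probe sequence, so they are not separate witnesses.

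Chemokines, the attractants of blood leukocytes, were called lower in some members. Of 13 CC chemokines 5 fell and 0 rose, and of 13 CXC chemokines 5 fell and 0 rose. The fallen share was 38.5% in each list, beside 4.94% of all genes. Ccl12, a monocyte attractant of the mouse, read 5.09 and 5.05 in Y721F and 11.01 and 8.80 in WT (-4.83, SE 0.46, adjusted p = 1.01e-05). Ccl7, another monocyte attractant, read 8.57 and 8.14 in Y721F and 12.12 and 12.04 in WT (-3.73, SE 0.30). Ccl2, the main ligand of CCR2, read 10.63 and 9.59 in Y721F and 12.27 and 12.28 in WT (-2.17, SE 0.35), so it stayed bright in both lines. Ccl6 and Ccl4 fell by 2.35 (SE 0.35) and 1.57 (SE 0.31).

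Cxcl10, an interferon-induced attractant of T cells, read 8.19 and 7.21 in Y721F and 10.96 and 10.60 in WT (-3.08, SE 0.37). Cxcl3, a neutrophil attractant, read 6.46 and 7.13 in Y721F and 11 and 9.50 in WT (-3.46, SE 0.36). The neutrophil attractant Cxcl2 read 6.62 and 8.86 in Y721F and 9.74 and 10.71 in WT, and its 2 Y721F arrays differ by more than 2 units. Its call (-2.48, adjusted p = 0.0255) was lost without Y721F I (0.182) or WT II (0.12). Pf4, platelet factor 4, fell by 1.90 (SE 0.48, adjusted p = 0.0227), a call lost without Y721F I, Y721F II or WT I (0.0936, 0.0617 and 0.201) and with all 32 arrays (0.105). The count of fallen CXC members was 3 with all 32 arrays, or without Y721F I, Y721F II or WT I.

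Cytokines of inflammation followed in part. Of 20 cytokines and IL-1 family genes, 6 fell (30%, beside 4.94% of all genes) and 0 rose, and the median was 0.00. Tnf, the gene of tumour necrosis factor, read 8.62 and 8.31 in Y721F and 9.79 and 9.97 in WT (-1.42, SE 0.30, adjusted p = 0.00762), a call lost without Y721F II (0.0764). Il1rn, which blocks the IL-1 receptor, fell by 1.55 (SE 0.32), and Il18, an IL-1 family cytokine, by 0.99 (SE 0.13). Il1b stayed dim in both lines, with 5.41 and 5.37 in Y721F and 5.21 and 5.48 in WT (0.04, SE 0.32). Of 18 subunits and feedback genes of NF-κB, the main inflammatory transcription factor, 0 were called, and their median was -0.11.

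MS4A genes encode small membrane-spanning proteins, several of them markers of tissue macrophages. Of 12 measured, 6 fell (50%, beside 4.94% of all genes) and 0 rose, with a median of -0.82. Ms4a6d read 5.41 and 5.11 in Y721F and 10.43 and 10.40 in WT (-5.16, SE 0.16, adjusted p = 1.74e-10). Ms4a6c read 4.70 and 4.61 in Y721F and 9.41 and 9.13 in WT (-4.62, SE 0.21). Ms4a6b read 4.14 and 4.63 in Y721F and 6.77 and 7.18 in WT (-2.59, SE 0.21). In these 3 genes the Y721F arrays are near or below the 25th percentile of genes, and both WT arrays lie well above it. Ms4a7 fell by 2.08 (SE 0.22). Ms4a4c fell by 1.74 (SE 0.35), a call lost with all 32 arrays (adjusted p = 0.131). Ms4a8a fell by 1.01 (SE 0.26), a call lost without Y721F I (0.127) or WT II (0.144) and with all 32 arrays (0.165). The 6 others ran from -0.61 (Ms4a4a) to 0.15 (Ms4a2, a mast cell gene).

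Receptors that sense microbes were lower in part. Of 18 Toll-like receptors and coreceptors, 6 fell (33.3%, beside 4.94% of all genes) and 0 rose. Tlr7, an endosomal sensor of single-stranded RNA, read 6.56 and 5.87 in Y721F and 9.97 and 9.77 in WT (-3.65, SE 0.18, adjusted p = 1.21e-08). Its neighbour on the X chromosome, Tlr8, fell by 1.58 (SE 0.23), and Tlr3, which senses double-stranded RNA, by 1.69 (SE 0.24). Tlr2, a receptor for bacterial lipoproteins, fell by 1.04 (SE 0.25), a call lost without Y721F II (adjusted p = 0.208) or WT I (0.138). The adaptor Myd88 fell by 0.66 (SE 0.18), a call lost without Y721F II, WT I or WT II (0.347, 0.179 and 0.0571) and after quantile normalization (0.0533). The list had 3 fallen members without Y721F II and 4 after quantile normalization.

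Of 27 C-type lectin receptors, which bind sugars of microbes and of dying cells, 8 fell (29.6%, beside 4.94% of all genes) and 0 rose. Clec7a, the β-glucan receptor dectin-1, read 5.28 and 5.67 in Y721F and 7.23 and 7.82 in WT (-2.05, SE 0.19). Clec4n, the mannan receptor dectin-2, read 5.04 and 4.80 in Y721F and 7.62 and 7.26 in WT (-2.52, SE 0.32). Clec4a2 and Clec2d fell by 2.17 (SE 0.23) and 1.98 (SE 0.37). The list had 4 fallen members with all 32 arrays and 5 without WT I. Of 7 Fc receptors for IgG and their relatives, Fcgr1 was the 1 that fell (14.3%) and 0 rose. Fcgr4, which binds IgG2, measured 0.79 (SE 0.26, adjusted p = 0.0698) and was called higher without WT II (0.000201). The common signalling chain Fcer1g stayed bright, with 12.35 and 12.48 in Y721F and 12.32 and 12.59 in WT.

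Genes for clearing dying cells went different ways. Of 24, 6 fell (25%) and 1 rose (4.17%), beside 4.94% and 2.94% of all genes. Mertk, the receptor tyrosine kinase that binds apoptotic cells through bridging proteins, read 5.43 and 5.48 in Y721F and 8.27 and 8.2 in WT (-2.78, SE 0.17, adjusted p = 1.48e-07). Its relative Axl fell by 1.67 (SE 0.16), and Pros1, the bridging protein S, by 2.63 (SE 0.25). Stab1, a scavenger receptor that binds phosphatidylserine, read 6.62 and 6.61 in Y721F and 9.62 and 8.73 in WT (-2.56, SE 0.25). Megf10, an engulfment receptor best known from astrocytes, ran the other way, with 8.32 and 8.26 in Y721F and 5.73 and 6.17 in WT (2.34, SE 0.21). Both kinases and a bridging protein were thus lower, and 1 engulfment receptor was higher.

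Complement C1q, which macrophages secrete and which tags dying cells, differed between the WT replicates. C1qb read 6.14 and 5.64 in Y721F and 10.41 and 7.51 in WT (-3.07, SE 0.69, adjusted p = 0.0116). C1qc read 6.61 and 6.27 in Y721F and 10.45 and 7.44 in WT (-2.50, adjusted p = 0.0391). WT I is about 3 units above WT II in both, although neither WT array falls to the Y721F level. C1qb lost its call without Y721F II (0.0941) or WT I (0.125) and with all 32 arrays (0.0636). C1qc lost its call without Y721F I, Y721F II or WT I (0.0696, 0.19 and 0.392) and with all 32 arrays (0.129). C1qa, added after its values were seen, measured -1.47 (adjusted p = 0.142) and was called without WT II (0.00259). Of 17 complement genes 4 fell, and 2 without WT I or with all 32 arrays.

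Lists of classical (M1) and alternative (M2) activation both held fallen members. Of 25 M2 markers 9 fell (36%) and 0 rose, and of 17 M1 markers 5 fell (29.4%) and 1 rose (5.88%). Of all genes 4.94% fell and 2.94% rose. Arg1, the arginase of alternatively activated cells, read 6.38 and 7.43 in Y721F and 10.28 and 8.72 in WT (-2.60, SE 0.73, adjusted p = 0.0367), a call lost without Y721F I, Y721F II or WT I (0.155, 0.0714 and 0.288). Mrc1, the mannose receptor, fell by 0.85 (SE 0.23, adjusted p = 0.0319), a call lost without Y721F I or WT II (0.177 and 0.149), after quantile normalization (0.0574) and with all 32 arrays (0.579). Among M1 markers, the costimulatory ligand gene Cd86 read 6.13 and 6.28 in Y721F and 9.21 and 8.29 in WT (-2.54, SE 0.25). Ptgs2, the inducible cyclooxygenase, fell by 2.27 (SE 0.27). Ido1, which degrades tryptophan, read 6.29 and 8.23 in Y721F and 5.14 and 5.46 in WT (1.96, SE 0.41), a rise not called without WT I (0.0628). The M2 list had 5 fallen members with all 32 arrays, and the M1 list 3 without Y721F II.

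Both lines carried the markers of macrophages. Of 24 identity genes measured, 10 were above the 75th percentile of genes on all 4 arrays, among them Csf1r, Cd68, Adgre1, Spi1 and Fcgr3. The lines differ in the CSF-1 receptor itself, so the Csf1r signal alone does not tell the cell type. Csf1r, the receptor itself, read 12.83 and 12.72 in Y721F and 13.41 and 13.28 in WT, a difference of -0.57 (SE 0.12, adjusted p = 0.0067) with a fold just under 1.5, and it was called without Y721F I (0.0103) or WT II (0.0106). Cd68, a lysosomal glycoprotein of macrophages, read 12.98 and 12.99 in Y721F and 12.90 and 13.13 in WT. Spi1, which encodes the lineage factor PU.1, read 10.79 and 10.76 in Y721F and 10.63 and 10.69 in WT. Adgre1, the F4/80 antigen, measured -0.50 (adjusted p = 0.0719) and was called without WT I (0.0308).

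Of the same 24 identity genes 7 fell (29.2%, beside 4.94% of all genes) and 0 rose, with a median of -0.53. The mean signal of the list was 8.67 and 8.79 in Y721F, against 9.46 and 9.53 in WT. Beside Fcgr1 and Mertk, Irf8, a transcription factor of monocytes and macrophages, read 6.77 and 7.40 in Y721F and 9.48 and 8.88 in WT (-2.10, SE 0.22, adjusted p = 2.59e-05). Siglec1, a sialic acid receptor of macrophages that interferon induces, read 9.85 and 9.85 in Y721F and 11.47 and 11.94 in WT (-1.85, SE 0.17). Lyz2, lysozyme, read 11.43 and 11.25 in Y721F and 12.75 and 13.0 in WT (-1.53, SE 0.15). In a culture measured in bulk, fewer cells of a type and less RNA per cell cannot be told apart.

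Lists of markers of other cells held 0 to 2 called members each. The share called higher was 14.3% of fibroblast and 12.5% of osteoclast markers, where 2.94% of all genes were higher and 4.94% lower. Of 15 dendritic cell and 17 mast cell and basophil markers, 0 were called. Bst2 and Cd24a of the first list and Srgn of the second were above the 75th percentile of genes on all 4 arrays. Below the 25th percentile of genes on all 4 arrays were 4 and 8 markers, Clec9a, Xcr1, Cpa3 and Fcer1a among them. The list means were 6.03 and 6.17 in Y721F and 6.04 and 6.17 in WT for dendritic cells, and 5.54 and 5.70 in Y721F and 5.43 and 5.59 in WT for mast cells. Of 18 granulocyte markers Mmp8 alone was called, lower, and 6 were below that percentile, the defining genes Ly6g, Ltf and Ngp among them; the list mean was 5.27 and 5.37 in Y721F and 5.63 and 5.64 in WT. Of 18 lymphocyte markers Cd2 alone was called, lower, a call lost with all 32 arrays (adjusted p = 0.0569), and 8, Cd3d, Cd3g and Cd4 among them, were below it; the list mean was 5.30 and 5.32 in Y721F and 5.25 and 5.37 in WT. Of 14 fibroblast markers 2 rose, and the mean signal of that list was 6.32 and 6.52 in Y721F, against 6.0 and 5.95 in WT. Pdgfra, a growth factor receptor of mesenchymal cells, read 7.86 and 9.33 in Y721F and 6.40 and 6.70 in WT (2.04, SE 0.36), and Twist1, a mesenchymal transcription factor, rose by 3.54 (SE 0.17). The fibroblast genes Dcn, Lum and Postn were below that percentile on all 4 arrays. Of 16 osteoclast markers 2 rose: Mmp9 by 1.04 (SE 0.22), and the proton pump subunit gene Atp6v0d2 by 2.56 (SE 0.76), a call lost without Y721F I, Y721F II or WT I (0.0929, 0.186 and 0.413). Of the osteoclast list 7 markers were above the 75th percentile on all 4 arrays, Ctsk, Dcstamp and Tnfrsf11a among them, and 1, Calcr, was below the 25th. The osteoclast list mean was 8.47 and 8.50 in Y721F, against 7.95 and 8.48 in WT. The part of other cells in the differences above was not tested.

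**Figure D2:**
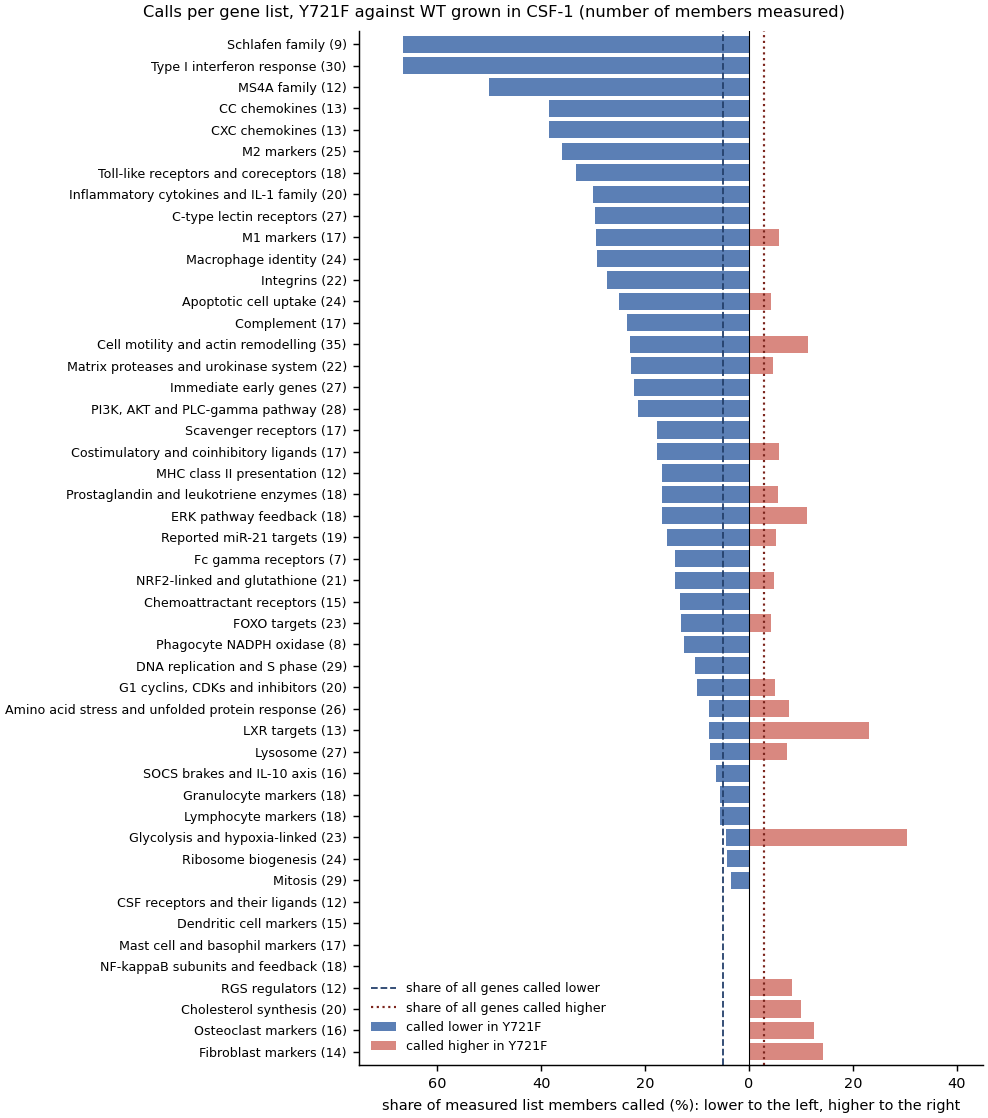
Share of the measured members of each gene list called lower (blue, to the left) or higher (red, to the right) in Y721F against WT, in percent, with the number measured in brackets; dashed and dotted lines give the shares of all genes, 4.94% lower and 2.94% higher. Schlafen, interferon, MS4A and chemokine lists stand farthest to the left, and the glycolysis and hypoxia list farthest to the right.

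Genes of the pathway that this tyrosine feeds were measured next. Of 28 genes of PI3K, AKT and PLC-γ signalling, 6 fell (21.4%, beside 4.94% of all genes) and 0 rose, with a median of -0.26. Pik3cg, the catalytic subunit p110γ that answers G-protein-coupled receptors, read 8.72 and 8.62 in Y721F and 10.02 and 9.71 in WT (-1.20, SE 0.14, adjusted p = 8.46e-05). Its regulatory partner Pik3r6 fell by 0.92 (SE 0.14). Cbl, the ubiquitin ligase that takes active CSF-1 receptor down, read 8.40 and 8.72 in Y721F and 9.41 and 9.47 in WT (-0.88, SE 0.14). The lipid phosphatase genes Inpp5d (SHIP1) and Inppl1 (SHIP2), which remove the PI3K product, fell by 0.62 and 0.60 (SE 0.16 each). Both sit near the fold threshold: Inpp5d lost its call without Y721F II (0.244) or WT I (0.254), and Inppl1 without Y721F I (0.122) or WT I (0.191). Inppl1 also lost its call after quantile normalization (0.0581), and Inpp5d there had a fold under 1.5. Pik3ap1, an adaptor between receptors and PI3K, fell by 0.65 (SE 0.13), a call lost without Y721F II (0.0709).

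The PI3K subunits that bind receptor tyrosines directly were not called. Pik3r1, the p85α regulatory subunit, read 8.39 and 8.30 in Y721F and 8.65 and 8.88 in WT (-0.42, SE 0.13, adjusted p = 0.0478, fold under 1.5). Pik3r2, p85β, measured 0.28 (SE 0.13), Pik3ca -0.16 (SE 0.14), Akt1 -0.12 (SE 0.13) and Plcg2 -0.06 (SE 0.13). Akt2 read 10.21 and 10.33 in Y721F and 10.22 and 10.32 in WT. Pik3cb, Pik3cd, Pik3r3 and Gab2 were uncalled too, at -0.40, -0.49, -0.90 and 0.36. Of these, Pik3cb was called without Y721F II (0.0189), and Pik3cd, Pik3r3 and Gab2 were called without Y721F I (0.0128, 0.00381 and 0.0163). Of 12 CSF receptors and ligands 0 were called, Csf1 among them (-0.28, SE 0.26), with a median of 0.03.

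Genes that CSF-1 is known to switch quickly differed between the arrays of a line. Of 27 immediate early genes 6 fell (22.2%) and 0 rose, beside 4.94% and 2.94% of all genes. But the list mean was 7.70 and 8.31 in Y721F, against 8.62 and 8.26 in WT, so Y721F II lies above WT II. The count was 10 without WT II, 4 without Y721F I, where 2 others rose, and 1 without WT I. Myc, a driver of cell growth, read 7.78 and 9.06 in Y721F and 10.55 and 9.58 in WT (-1.65, SE 0.45, adjusted p = 0.0316), a call lost without Y721F I (0.2) or WT I (0.266) and with all 32 arrays (0.084). Id1, an inhibitor of differentiation, fell by 1.88 (adjusted p = 0.022), a call lost without Y721F II (0.149) or WT I (0.125). Of 18 ERK feedback genes, 2 rose and 3 fell, and 1 each did without Y721F II or WT I. Dusp4, a phosphatase of MAP kinases, read 9.78 and 10.31 in Y721F and 7.66 and 8.14 in WT (2.15, SE 0.24, adjusted p = 4.82e-05). Spry2, a brake on receptor tyrosine kinases, rose by 1.35 (SE 0.26), a call lost without Y721F II (0.0594) or WT I (0.0549).

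Cell cycle genes changed in a few members. Of 20 G1 cyclins, kinases and inhibitors 1 rose (5%) and 2 fell (10%), beside 2.94% and 4.94% of all genes. Ccnd2, cyclin D2, read 9.03 and 8.23 in Y721F and 12.08 and 11.04 in WT (-2.93, SE 0.33, adjusted p = 4.66e-05). Its relative Ccnd1, cyclin D1, read 11.57 and 10.21 in Y721F and 12.02 and 11.80 in WT (-1.02, SE 0.44, adjusted p = 0.16) and was called without Y721F I (0.0228). Cdkn1b, the inhibitor p27, measured 0.72 (SE 0.33, adjusted p = 0.189) and was called higher without Y721F I (0.00119). DNA replication and mitosis genes had medians of -0.19 and -0.21. Of 29 genes in the first list 3 fell (10.3%), and of 29 in the second 1 fell (3.45%), beside 4.94% of all genes. These counts were 5 and 2 without Y721F I or WT II, 1 and 0 without WT I, and 2 and 0 without Y721F II. Pola1, the catalytic subunit of DNA polymerase α, fell by 0.75 (SE 0.14).

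The list with the most risen members was that of glycolysis and hypoxia, and its replicates differed from each other. Of 23 glycolysis and hypoxia-linked genes 7 rose (30.4%) and 1 fell (4.35%), beside 2.94% and 4.94% of all genes. The list median was 0.57. Bnip3, a mitochondrial protein that hypoxia induces, read 11.40 and 12.74 in Y721F and 8.36 and 10.16 in WT (2.81, SE 0.47, adjusted p = 0.00169). Slc2a3, the glucose transporter GLUT3, read 8.09 and 8.54 in Y721F and 5.82 and 6.0 in WT (2.4, SE 0.17). Egln3, the oxygen-sensing prolyl hydroxylase PHD3, read 10.68 and 12.25 in Y721F and 8.19 and 9.25 in WT (2.75, SE 0.53), a call lost without Y721F II (0.0729) or WT I (0.0626). Pdk1, which keeps pyruvate out of mitochondria, rose by 1.01 (SE 0.21), a call lost without Y721F II (0.101) or WT I (0.0993). Vegfa, a hypoxia target added after its values were seen, read 9.01 and 11.66 in Y721F and 8.06 and 8.75 in WT (1.93, adjusted p = 0.0689). It was called without Y721F I (0.00101) and with all 32 arrays (0.0355).

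The glycolysis and hypoxia list had a mean signal of 10.48 and 11.44 in Y721F, against 9.79 and 10.35 in WT, so array II is higher than array I in both lines. The count of risen members was 14 without Y721F I, 2 without Y721F II, 2 without WT I and 9 without WT II. Ribosome biogenesis ran in the opposite sense: the list mean was 9.99 and 9.07 in Y721F, against 10.56 and 9.81 in WT. The list median was -0.66, and 1 of its 24 genes (4.17%) fell, beside 4.94% of all genes. Odc1, an enzyme of polyamine synthesis rather than of the ribosome, fell by 0.83 (SE 0.22). Its call was lost without Y721F II, WT I or WT II and with all 32 arrays (adjusted p = 0.0987, limma). Without Y721F I the count of fallen genes was 18, and without WT II it was 15, against 0 without Y721F II or WT I. The direction from array I to array II was thus shared by the lines in both lists.

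Cholesterol synthesis genes had 2 risen members of 20 (10%, beside 2.94% of all genes) and a median of 0.60. Their mean signal was 10.34 and 10.31 in Y721F, against 9.39 and 10.25 in WT, so WT I alone stands apart. Mvd and Mvk, enzymes of the mevalonate pathway, rose by 1.12 (SE 0.30, adjusted p = 0.0289) and 0.69 (SE 0.18, adjusted p = 0.0263). Mvd lost its call without Y721F II (0.172) or WT I (0.285), and Mvk without Y721F I, Y721F II or WT I (0.099, 0.068 and 0.282). With WT II left out 12 members rose, and with WT I left out 0 rose and 1 fell. Scd2, a fatty acid desaturase and a target of the sterol receptor LXR, read 11.77 and 11.88 in Y721F and 7.6 and 9.13 in WT (3.46, SE 0.53, adjusted p = 0.000777). Its rise was called with any 1 of the 4 arrays left out. The phospholipid transfer protein gene Pltp read 11.26 and 11.67 in Y721F and 8.19 and 10.41 in WT (2.17, SE 0.44), a call lost without Y721F II (0.0666).

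**Figure D3:**
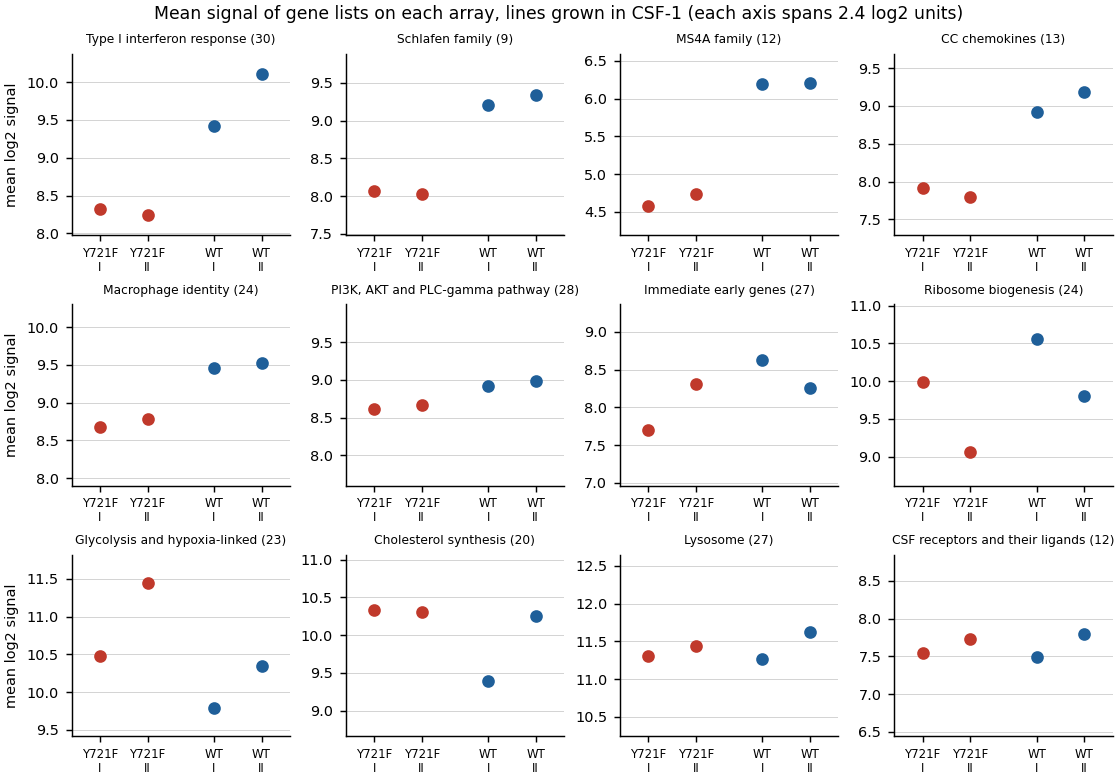
Mean log2 signal (y axis, 2.4 units in each panel) of 12 gene lists on the 4 arrays, Y721F in red and WT in blue, with the number of measured genes in brackets. The interferon, Schlafen, MS4A, chemokine and macrophage identity means separate the lines, while the immediate early, ribosome biogenesis, glycolysis and cholesterol means differ as much between 2 arrays of a line as between lines.

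Lists of lipid mediators, presentation and stress showed fewer calls. Shares called lower ran from 7.41% (lysosome) to 17.6% (costimulatory ligands), beside 4.94% of all genes. Shares called higher ran from 0 to 7.41% (lysosome), beside 2.94% of all genes. Of 18 prostaglandin and leukotriene genes 3 fell and 1 rose, with Alox5, the first enzyme of leukotriene synthesis, lower by 1.65 (SE 0.27). Of 12 MHC class II genes 2 fell, and of 17 costimulatory ligands 3 fell and 1 rose, with Icosl, the ligand of ICOS, lower by 1.38 (SE 0.21). Of 15 chemoattractant receptors C5ar1, the receptor of complement C5a, fell by 2.19 (SE 0.28), Cxcr4, the receptor of CXCL12, fell by 1.70 (SE 0.35), and 0 rose. Of 27 lysosome genes 2 rose and 2 fell, with Ctsh, a cathepsin, lower by 1.56 (SE 0.18). Of 21 glutathione and NRF2-linked genes 1 rose and 3 fell, with Mgst1, a membrane glutathione transferase, lower by 1.71 (SE 0.17). Of 23 FOXO targets 1 rose and 3 fell, with Insr, the insulin receptor, lower by 1.32 (SE 0.24), and 8 rose and 3 fell without Y721F I, against 0 and 5 without Y721F II.

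Reported targets of the microRNA that the study's title names, miR-21, were measured too. Of 19, 1 rose and 3 fell, which is 5.26% and 15.8%, beside 2.94% and 4.94% of all genes, with a median of 0.13. Jag1, a ligand of Notch, fell by 2.13 (SE 0.38), and Spry2 rose, as given above. Rhob, a small GTPase, fell by 1.46 (SE 0.40), a call lost without Y721F I (adjusted p = 0.216) or WT I (0.338). Pdcd4, a translation inhibitor, measured 0.54 (adjusted p = 0.216, limma) and was called higher without Y721F I (0.0282).

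The genes that rose most are of many kinds. Cyp11a1, the enzyme that turns cholesterol into pregnenolone in steroid-making cells, read 9.79 and 10.47 in Y721F and 4.52 and 6.40 in WT (4.67, SE 0.49, adjusted p = 2.3e-05). Rgs17, which shortens G-protein signals, read 8.92 and 8.85 in Y721F and 4.92 and 4.90 in WT (3.98, SE 0.16, adjusted p = 2.05e-09). Nedd4, a ubiquitin ligase, read 9.47 and 9.10 in Y721F and 5.48 and 5.37 in WT (3.86, SE 0.16). In Y721F the signals of Rgs17 and Nedd4 are above the 75th percentile of genes on both arrays, and no WT array comes near them.

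Pla2g7, which inactivates platelet-activating factor, read 9.18 and 9.75 in Y721F and 5.36 and 5.98 in WT (3.79, SE 0.40). Twist1 read 9.47 and 9.82 in Y721F and 6.34 and 5.88 in WT (3.54, SE 0.17). Peg10 and Sgce are imprinted genes that lie head to head on chromosome 6, and both rose. Peg10 read 9.10 and 9.47 in Y721F and 6.15 and 6.01 in WT (3.21, SE 0.22), and Sgce read 9.31 and 9.93 in Y721F and 6.79 and 5.96 in WT (3.25, SE 0.32). Further rises were those of Plce1, a phospholipase C, by 3.15 (SE 0.17), Aldh3a1, an aldehyde dehydrogenase, by 3.15 (SE 0.22), and Sema5a, a guidance molecule, by 3.08 (SE 0.26). Clu, the extracellular chaperone clusterin, rose by 2.66 (SE 0.24), and Gpr183, an oxysterol receptor, by 2.52 (SE 0.35). The calls of all these rises, from Cyp11a1 on, held with any 1 of the 4 arrays left out.

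Genes of adhesion and matrix breakdown were lower in part. Of 22 integrins 6 fell (27.3%) and 0 rose, beside 4.94% and 2.94% of all genes. Itga4, the α4 chain that binds VCAM-1, read 6.77 and 6.15 in Y721F and 9.82 and 8.93 in WT (-2.92, SE 0.24, adjusted p = 2.67e-06). Itgal, the α chain of LFA-1, read 5.69 and 5.64 in Y721F and 9.17 and 7.59 in WT (-2.71, SE 0.33), and Itgam, the α chain of Mac-1, fell by 0.91 (SE 0.13). Of 22 matrix proteases and urokinase genes, 5 fell (22.7%) and 1 rose (4.55%). Mmp13, a collagenase, read 6.22 and 7.95 in Y721F and 9.74 and 9.98 in WT (-2.77, SE 0.39), and Plau, urokinase, fell by 1.97 (SE 0.20). Of 35 genes of motility and actin remodelling, 8 fell and 4 rose, against 6 and 1 without Y721F II and 5 and 2 without WT I. Ezr, the membrane linker ezrin, fell by 1.45 (SE 0.18), and Dock8, an exchange factor of CDC42, by 1.24 (SE 0.15). Tns1, tensin of cell-matrix contacts, read 10.95 and 10.83 in Y721F and 7.99 and 8.77 in WT (2.51, SE 0.22).

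The study's title names a microRNA that CSF-1 induces, and genes of microRNA precursors were looked at after the calls were seen. Of 300 measured, 7 rose and 3 fell, where 2.94% of all genes rose and 4.94% fell, with a median of 0.065. Only 2 of the 10, Mir328 and Mir199a-1, have a mean signal above the median of genes, and the array reads the precursor or its host transcript, not the mature microRNA. Mir26a-1 read 5.90 and 5.77 in Y721F and 4.97 and 5.30 in WT (0.70, SE 0.19, adjusted p = 0.0306), and Mir26b read 5.49 and 5.44 in Y721F and 5.18 and 4.54 in WT (0.60, SE 0.17, adjusted p = 0.036). Mir199a-1 read 7.15 and 7.92 in Y721F and 6.02 and 6.42 in WT (1.31, SE 0.27, adjusted p = 0.00641). The mature RefSeq sequences of these 3 are printed with the seed, bases 2 to 8, in capitals, to show that the first pair shares it.
mmu-miR-26a-5p: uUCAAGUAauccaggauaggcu
mmu-miR-26b-5p: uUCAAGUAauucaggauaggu
mmu-miR-199a-5p: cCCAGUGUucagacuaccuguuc
Mir26a-1 lost its call without Y721F I, Y721F II or WT I (0.0971, 0.0932 and 0.235), Mir26b without Y721F I, Y721F II or WT II (0.0916, 0.126 and 0.255) and after quantile normalization (0.051), and Mir199a-1 without Y721F II (0.0895) or WT I (0.0699). The call of Mir328 was lost without Y721F I, Y721F II or WT I (0.0614, 0.171 and 0.223).

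Whether the line difference needs CSF-1 was asked with the same lines starved of it, on other arrays. Between the starved lines 2219 genes were called, 11.1% of all, with 692 higher and 1527 lower in Y721F, and 1417 without the starved array Y721F II. After quantile normalization the starved calls were 714 higher and 991 lower. Of the genes lower in grown Y721F cells, 613 were lower in starved cells too, which is 62.2% of the grown and 40.1% of the starved list. Of the higher genes 173 were shared, which is 29.5% of the grown and 25% of the starved list. Just 1 gene was called in opposite directions. Among grown lower genes the median difference was -0.88 grown and -0.77 starved, and among grown higher genes it was 0.83 grown and 0.39 starved. The interferon list had 28 of 30 members lower in starved Y721F cells, with a median of -1.66. The glycolysis and hypoxia list had 1 higher and 2 lower of 23 when starved, and a median of 0.00.

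The dependence on CSF-1 was tested as the grown difference minus the starved one, and 18 genes were called, 0.0903% of all, 15 with a positive and 3 with a negative value. Ccl12 read 5.84 and 5.24 in starved Y721F cells and 6.36 and 6.82 in starved WT cells, so its gap between the lines was wider in growing cells. The grown minus starved value was -3.79 (SE 0.65, adjusted p = 0.0442, limma). This call was lost in 9 of 15 alternative settings. Mrc1 went the other way: it read 6.37 and 6.09 in starved Y721F cells and 9.81 and 9.17 in starved WT cells, a wider gap than in grown cells (2.41, SE 0.33, adjusted p = 0.0109), a call lost in 4 of 15 settings, with the highest adjusted p, 0.415, in the fit to all 32 arrays. Ms4a6b read 4.08 and 4.26 in starved Y721F cells and 9.82 and 9.82 in starved WT cells (3.06, SE 0.30), and Ms4a4a 5.60 and 5.4 in starved Y721F cells and 9.68 and 8.90 in starved WT cells (3.17, SE 0.48). These calls were lost in 1 of 15 settings for Ms4a6b and 5 of 15 for Ms4a4a. Rgs17 read 6.71 and 6.42 in starved Y721F cells and 5.0 and 5.28 in starved WT cells, so its rise was larger in growing cells (2.55, SE 0.23, adjusted p = 0.000382), a call lost in 1 of 15 settings. The count was 757 without Y721F I, 414 without WT II, 5 without Y721F II and 13 without WT I. Leaving out a starved array gave 9 (Y721F I), 4 (Y721F II), 4 (WT I) or 24 (WT II), and the fit to all 32 arrays gave 4.

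Receptors of the second pair of grown lines may differ from those of the first in more than the tyrosine, as said above. How far the difference recurs was asked in that pair, 3AB without and 3ABY721 with the tyrosine. In that pair 236 genes were called, 1.18% of all, 108 higher and 128 lower in 3AB. Without 1 array of that pair the count was 74 to 92, and with all 32 arrays it was 148. Of the 985 genes lower in Y721F, 19 were lower in 3AB too, which is 1.93% of the first and 14.8% of the second list, and 55 were higher there. Of the 587 genes higher in Y721F, 2 were higher in 3AB, which is 0.341% and 1.85%, and 35 were lower. The median difference of the Y721F-lower genes was 0.18 in the second pair. The difference between the pairs was called in 126 of the 183 called genes that the naming rule chose. The rule used the same Y721F and WT arrays and, for some genes, this contrast, so that share was largely fixed by the choice. Over all genes the difference between the pairs was called in 1593, 7.99% of all. Without 1 of the 8 arrays that count was 845 to 2280: 864 without 3AB I, 845 without 3AB II, 901 without 3ABY721 I and 900 without 3ABY721 II.

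Several of the largest changes had the opposite sign in the second pair. Of those given here, Cybb, Ms4a6b, Ms4a6d, Dusp4 and Tuba8 are among the 5 largest values either way of the contrast between the pairs. The naming rule takes genes by that contrast, so their opposite signs are in part a matter of selection. Ms4a6b read 9.81 and 9.46 in 3AB and 6.23 and 6.10 in 3ABY721 (3.47, SE 0.21, adjusted p = 1.54e-06), and the difference between the pairs was -6.06 (SE 0.30). Ms4a6d read 11.23 and 11.13 in 3AB and 10.01 and 9.88 in 3ABY721, a rise of 1.24, and the pairs differed by -6.39 (SE 0.23). Mertk read 8.65 and 8.44 in 3AB and 7.04 and 7.23 in 3ABY721 (1.41, SE 0.17), with a difference between pairs of -4.19 (SE 0.24). Cybb read 11.97 and 11.79 in 3AB and 10.35 and 10.37 in 3ABY721 (1.52, adjusted p = 0.0427, limma), a call lost in 7 of 11 alternative settings. For Cybb the pairs differed by -7.39 (SE 0.48). Among risen genes, Dusp4 read 5.42 and 5.67 in 3AB and 8.15 and 8.29 in 3ABY721 (-2.67, SE 0.24), and Tuba8, an α-tubulin, 7.07 and 7.26 in 3AB and 10.09 and 10.26 in 3ABY721 (-3.01, SE 0.41). Tuba8 had risen in Y721F by 1.96 (SE 0.41, adjusted p = 0.00708), a call lost with all 32 arrays (0.0669). For Nedd4, Twist1 and Peg10 both 3AB and 3ABY721 cells were as dim as WT, with differences of -0.10, -0.12 and 0.04. Of the interferon list 0 of 30 were called in the second pair, and their median was 0.15.

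The 21 genes called the same way in both pairs were mostly lower. The water channel gene Aqp8 read 7.48 and 7.89 in Y721F and 9.95 and 10.60 in WT (-2.59, SE 0.21), and 6.42 and 6.84 in 3AB and 9.35 and 9.47 in 3ABY721 (-2.78, SE 0.21). Clec4n read 6.18 and 6.07 in 3AB and 9.32 and 9.13 in 3ABY721 (-3.10, SE 0.32). Tm4sf1, a membrane protein of the tetraspanin kind, read 6.86 and 6.67 in Y721F and 9.17 and 9.13 in WT (-2.38, SE 0.14), and 5.89 and 6.15 in 3AB and 8.2 and 8.37 in 3ABY721 (-2.27, SE 0.14). In these 3 genes the groups do not overlap in either pair. Glipr2 fell by 2.27 (SE 0.18) and 1.83 (SE 0.18), and Cd74, the invariant chain of MHC class II, by 2.0 (SE 0.37) and 2.12 (SE 0.37). In the second pair Cd74 lost its call in 4 of 11 alternative settings. Of the 2 shared rises, Trf, transferrin, rose by 1.36 (SE 0.39, adjusted p = 0.039), a call lost without Y721F II (0.235) or WT II (0.276), and by 2.53 (SE 0.39) in the second pair, where 1 of 11 settings lost the call. Cyp27a1, the sterol 27-hydroxylase, rose by 0.81 (SE 0.24, adjusted p = 0.0405), a call lost without Y721F II (0.278) or WT I (0.392) and with all 32 arrays (0.346), and by 1.21 (SE 0.24) in the second pair, where the call was lost in 5 of 11 settings (adjusted p up to 0.361).

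**Figure D4:**
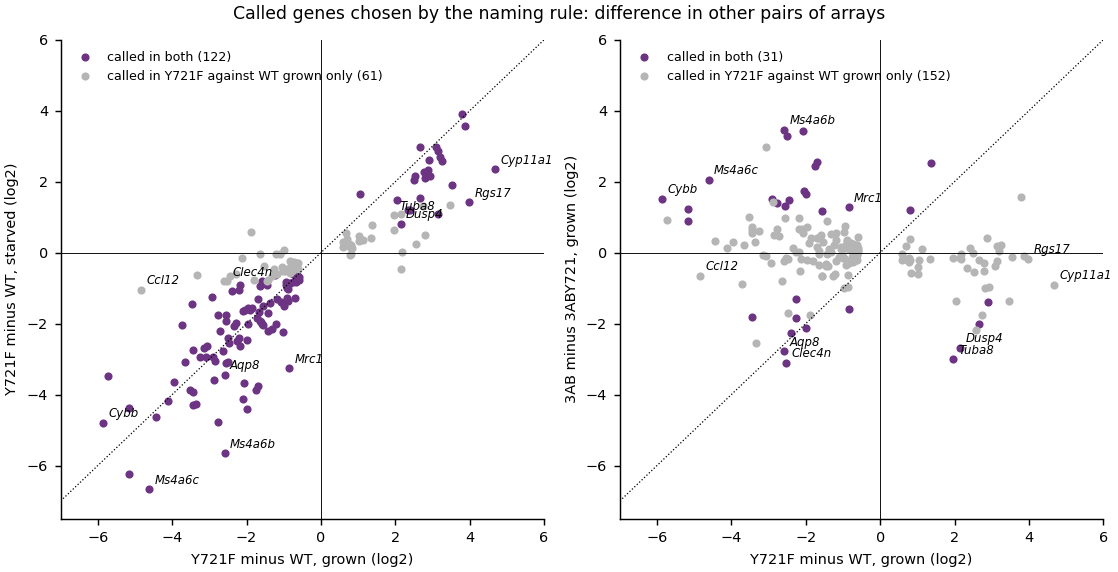
Difference of the 183 called genes that the naming rule chose: Y721F minus WT grown (x axis, log2) against Y721F minus WT starved (left) and 3AB minus 3ABY721 grown (right), purple where also called there (122 and 31 genes), grey where not; the dotted line marks equal differences. In starved lines most points have the sign they have in grown lines, with many off the dotted line, such as Ccl12, Mrc1, Ms4a6b and Rgs17, and in the second pair most lie near 0 or on the other side of it. The naming rule takes in some of these genes for their contrast between comparisons.

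A difference by chromosome was noticed after the calls were made. Among the 9952 genes above the median signal with a chromosome in RefSeq, 439 (4.41%) rose and 910 (9.14%) fell, with a median of -0.05. Of all these genes 54.7% had a value below 0. On chromosome 16, 83 of 320 such genes (25.9%) fell and 6 (1.88%) rose, with a median of -0.35, and 80% of the genes had a value below 0. Over all 648 measured genes of chromosome 16, dim ones included, 84 fell and 9 rose, and the median was -0.03, against 0.05 over the genes of all chromosomes. The shift was there in each of 4 equal blocks of the gene order along that chromosome, with 20, 17, 20 and 26 fallen genes of 80 each. It was also there in each pairing of the arrays: the chromosome median was -0.38 and -0.30 for Y721F I minus WT I and WT II, and -0.40 and -0.34 for Y721F II minus WT I and WT II. Chromosome 18 had 36 fallen (15.6%) and 1 risen (0.433%) of 231 genes, with a median of -0.21, against -0.02 over all its measured genes. Chromosome 8 ran the other way, with 55 risen (10%) and 21 fallen (3.82%) of 550 genes and a median of 0.14, against 0.12 over all its measured genes. Chromosome 6 was close to it, with 39 risen (8.125%) and 26 fallen (5.42%) of 480 genes. Its median was 0.125, against 0.105 over all its measured genes.

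The chromosome 16 median was -0.47 between the starved lines and 0.11 between 3AB and 3ABY721, and -0.27 in grown cells after quantile normalization. Set against the mean of the 4 grown lines, it was -0.23 in Y721F, 0.12 in WT, 0.12 in 3AB and 0.02 in 3ABY721, so Y721F is the line that stands apart. Ifnar1, Ifnar2, Mx1, Pros1 and Cd86 are members of this chromosome that were described above. The copy number of chromosomes was not measured on these arrays, and its part in these differences was not tested.

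**Figure D5:**
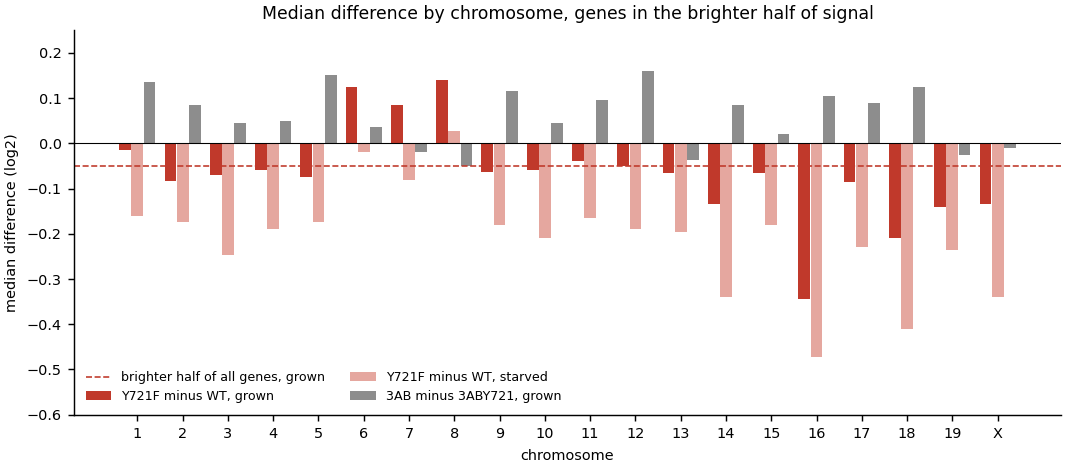
Median log2 difference (y axis) of the genes above the median signal on each chromosome (x axis): Y721F minus WT grown in red, Y721F minus WT starved in pale red, 3AB minus 3ABY721 grown in grey; the dashed line is the grown median over all such genes, -0.05. Chromosome 16 has the lowest bars in both Y721F against WT comparisons, at -0.35 grown and -0.47 starved, and chromosome 8 the highest grown bar, at 0.14.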

How the data were processed

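RNA of 4 macrophage lines was measured on 32 one-colour arrays with biotin label. The authors deposited log2 signals for 35556 probe sets; that the scale is log2 was read from the values. For background correction, summarization and normalization the method is not given in the sources used here, and array quartiles were close to each other. Per the labels' protocols RNA was taken with Trizol.

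The array's annotation listed 23410 probe sets. Of these, 21789 named 1 gene and were used, and 1621 named several. Another 12146 had no entry, and 999 genes had several probe sets, of which the brightest over the 32 arrays was kept, which left 19938 genes. The gene of miR-21 was not analysed here.

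Group means of the 16 starved and grown arrays (8 groups, 8 residual degrees of freedom, prior 6.33) were fitted with limma 3.58.1 in R 4.3.3 (lmFit, eBayes) and p-values adjusted by Benjamini-Hochberg over all genes. The fit was tested on simulated data in which a gene had the same spread in every group. That test does not cover the wider spread of the grown Y721F and WT arrays. The fold of 1.5 is that of the series' design text. Time-course arrays entered only as an alternative. Tables were made with Python 3.11.15 and pandas 2.3.3.

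The comparison, the 48 gene lists and the genes given whatever their value were chosen with earlier results of these data known. Named genes are the 20 largest rises and falls among called genes without overlap, up to 6 called members of each list, the 5 largest differences either way in the contrasts between comparisons, and the 5 largest shared by both pairs of lines. Csf1r, Arg1, Mrc1, Il1b, Tnf, Myc, cyclin D1, p27, Pik3r1, Plcg2, Csf1, Spi1 and the CSF receptor, PI3K, Fc receptor, MS4A and Schlafen families are given whatever their value. Lists are described by counts and medians, with no set test. Alternatives were all 32 arrays, the 4 arrays alone, a replicate block, quantile normalization, a filter on dim genes (25th percentile), mean probe sets, trend and robust eBayes, the unadjusted cutoff of the series' design text, and leaving out each array, where the lone array is assumed to vary like the other groups.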

Additional observations from a re-analysis of the deposited data

Results flagged for a closer look

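The difference between the Y721F and WT lines was not the same in growing and starved cells for 18 genes, by the contrast of the 2 differences in limma. Among them Ccl12 (-3.79), Adap2 (-1.79) and Tm4sf1 (-1.29) had the negative values, which means a lower Y721F level relative to WT in growing cells. Of 15 alternative settings, 9 lost the call of Ccl12, 8 that of Adap2 and 7 that of Tm4sf1. Positive values were led by Ms4a4a (3.17), Ms4a6b (3.06), Rgs17 (2.55), AW112010 (2.42) and Mrc1 (2.41). Of the same 15 settings, 5 lost the call of Ms4a4a and 4 that of Mrc1, and 1 each lost those of Ms4a6b, Rgs17 and AW112010. Of the 183 called genes chosen by the naming rule, 11 were among the 18. The rule takes up to 5 of the largest values of this contrast either way, so that overlap was largely fixed by the choice.

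The difference between Y721F and WT also departed from that between 3AB and 3ABY721, both grown, in 1593 genes, 126 of the 183 among them. The naming rule used the same Y721F and WT arrays and in part this contrast, so the 126 were largely fixed by the choice. The lowest values of that contrast were those of Cybb (-7.39), Ms4a6c (-6.67), Mmp8 (-6.64), Ms4a6d (-6.39) and Ms4a6b (-6.06). The highest were those of Cyp11a1 (5.58), Tuba8 (4.97), Dusp4 (4.82), Scd2 (4.81) and Atp6v0d2 (4.75). The call of Atp6v0d2 was lost in 2 of 15 alternative settings. No group has enough arrays for a test of single outlying values.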

How the results depend on the processing

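No called difference of a named gene reversed its direction under any alternative run, while counts of risen and fallen members of whole lists did change, as given with the FOXO and cholesterol lists. Of 183 called genes chosen by the naming rule, 107 kept their call in each omission of 1 array and 70 in every setting. Calls were lost by 33 with all 32 arrays, 13 after quantile normalization, 16 with trend and robust eBayes and 111 with the 4 arrays alone. Leaving out 1 array, the counts ran from 862 to 2449 for Y721F against WT grown, 1417 to 2092 starved, 4 to 757 for grown minus starved, 74 to 92 for 3AB against 3ABY721 and 845 to 2280 for the difference between pairs. With all 32 arrays the counts were 4 for grown minus starved and 148 for 3AB against 3ABY721, and with the 4 arrays alone 210 genes were called in Y721F against WT grown. With the unadjusted cutoff of the series' design text they were 1558, 614 and 3424 for grown minus starved, 3AB against 3ABY721 and the difference between pairs. The other settings kept the total count of each comparison within 1.5 times, while the starved calls that were lower numbered 991 after quantile normalization, against 1527.

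The replicate numbers I and II pair no samples by the labels, and deviations of same-numbered grown Y721F and WT arrays correlated at 0.283. With the number as a replicate block, 1625 genes were called in Y721F against WT grown, 2250 starved, 16 in grown minus starved, 256 in 3AB against 3ABY721 and 1610 in the difference between pairs, and 4 named calls were lost. Dim probe sets limit the size of a difference, since a signal near background cannot fall further. With 2 arrays a group, 1 array moves counts of whole lists, as it did for glycolysis, ribosome biogenesis and cholesterol genes, and the cause was not tested.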
